A study of Mus musculus with 6 samples.

Results

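Laminin-332 is the basement membrane protein that anchors epithelial cells. The genes described here encode its alpha and beta chains, the alpha chain of another laminin, and membrane proteins that attach cells to laminins or collagens. They were read in DU145 tumours. The set was given by name: LAMA3, LAMB3, LAMA5, ITGA2, ITGA3, ITGA6, ITGB1, ITGB4 and COL17A1. All 9 were found in the table of human genes, which holds 58884 named genes, and all 9 were among the 18820 genes that passed the filter on low counts. DU145 is a human prostate cancer cell line. The cells were injected under the skin of male nude mice, a strain that lacks a normal T cell compartment, and RNA was taken from the tumours. There were 3 tumours labelled Zelnorm (columns MBZ_254, MBZ_257 and MBZ_259) and 3 labelled control (NC10, NC4 and NC9). Zelnorm is the trade name of tegaserod, an agonist of a serotonin receptor, and was given by mouth every day. The labels give no dose, no age of the mice, no duration and no vehicle for the controls, and titles of treated samples read MBZ, which is not explained. The study compared the groups to see how the drug acts on the tumour, and each tumour was read in a human table for the cancer cells and a mouse table for the host.

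Laminins are trimers of an alpha, a beta and a gamma chain. LAMA3 and LAMB3 encode the alpha and beta chains of laminin-332, and LAMA5 encodes the alpha chain of another epithelial laminin. Integrins are dimers of an alpha and a beta chain. The dimer of ITGA6 and ITGB4 sits in hemidesmosomes, the rivets that tie basal cells through plectin to keratin filaments, together with the transmembrane collagen encoded by COL17A1. ITGB1 pairs with ITGA3 to form a laminin receptor at cell edges, with ITGA6 to form another, and with ITGA2 to form a receptor for collagens. In normal prostate several of these genes, among them LAMB3, ITGB4 and COL17A1, are typical of the basal layer, next to the basement membrane. Others are expressed more widely, such as ITGB1.

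Depth was 24602178 to 36935816 counts per Zelnorm library and 25854118 to 39278195 per control library in the human table, and 5817165 to 9050985 and 6158251 to 9228446 in the mouse table. All 8 markers of DU145 cells checked were above 1 CPM (counts scaled to the library total, the unit of level used throughout). They included the epithelial KRT8, KRT18, EPCAM and CDH1, and also VIM, a mesenchymal marker. Their summed level was 6027 to 6760 CPM in Zelnorm and 5598 to 6635 CPM in control tumours. VIM alone had a mean of 639 CPM in Zelnorm and 643 CPM in control tumours. Of the markers of luminal prostate, KLK3, KLK2 and FOLH1 did not pass the filter. Markers of stromal, muscle and blood cell types also had counts in the human table. The 6 fibroblast markers summed to 306 to 1143 CPM in Zelnorm and 738 to 1419 CPM in control tumours. Collagens carried that sum. Mean levels in Zelnorm and control tumours were 534 and 639 CPM for COL1A1, 109 and 147 for COL1A2, and 117 and 183 for COL3A1. PDGFRB was at 1.85 and 1.73 CPM, and LUM and DCN did not pass the filter. The 5 muscle markers summed to 0.890 to 221 CPM in Zelnorm and 10.5 to 104 CPM in control tumours. The 5 endothelial markers summed to 6.56 to 19.1 CPM in Zelnorm and 11.8 to 22.7 CPM in control tumours. The 6 leukocyte markers summed to 35.5 to 46.0 and 36.7 to 43.0 CPM, and the 4 adipocyte markers to 3.25 to 5.19 and 4.19 to 4.85 CPM. Few genes carried these sums: in Zelnorm and control tumours KDR averaged 8.16 and 10.3 CPM, CD68 29.6 and 27.8, CSF1R 7.64 and 8.98, and CFD 4.10 and 4.04. PTPRC, a leukocyte marker, averaged 0.842 and 0.886 CPM, and CD14, VWF, ADIPOQ and LEP did not pass the filter. The part of these markers in the results was not tested. The labels name no animals, so p-values measure the spread between these samples. In a bulk tumour, fewer cells of a type and less RNA per cell cannot be told apart.

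None of the 9 genes differed between Zelnorm and control tumours beyond the spread between tumours. With edgeR's quasi-likelihood test 0 of the 9 were called at an adjusted p under 0.05, and 0 of the 9 had an unadjusted p under 0.05. Over all 18820 tested human genes the test called 0, which is 0% (247 had an unadjusted p under 0.05; DESeq2 called 1 and limma-voom 0). For 6 genes the fitted change was above 0 and for 3 below, with a median log2 fold change of 0.02, against -0.00 over all tested genes. No gene had its 3 Zelnorm tumours on one side of its 3 control tumours, a condition that 4.82% of tested human genes met. Every adjusted p of the 9 was 1.00.

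**Figure D1:**
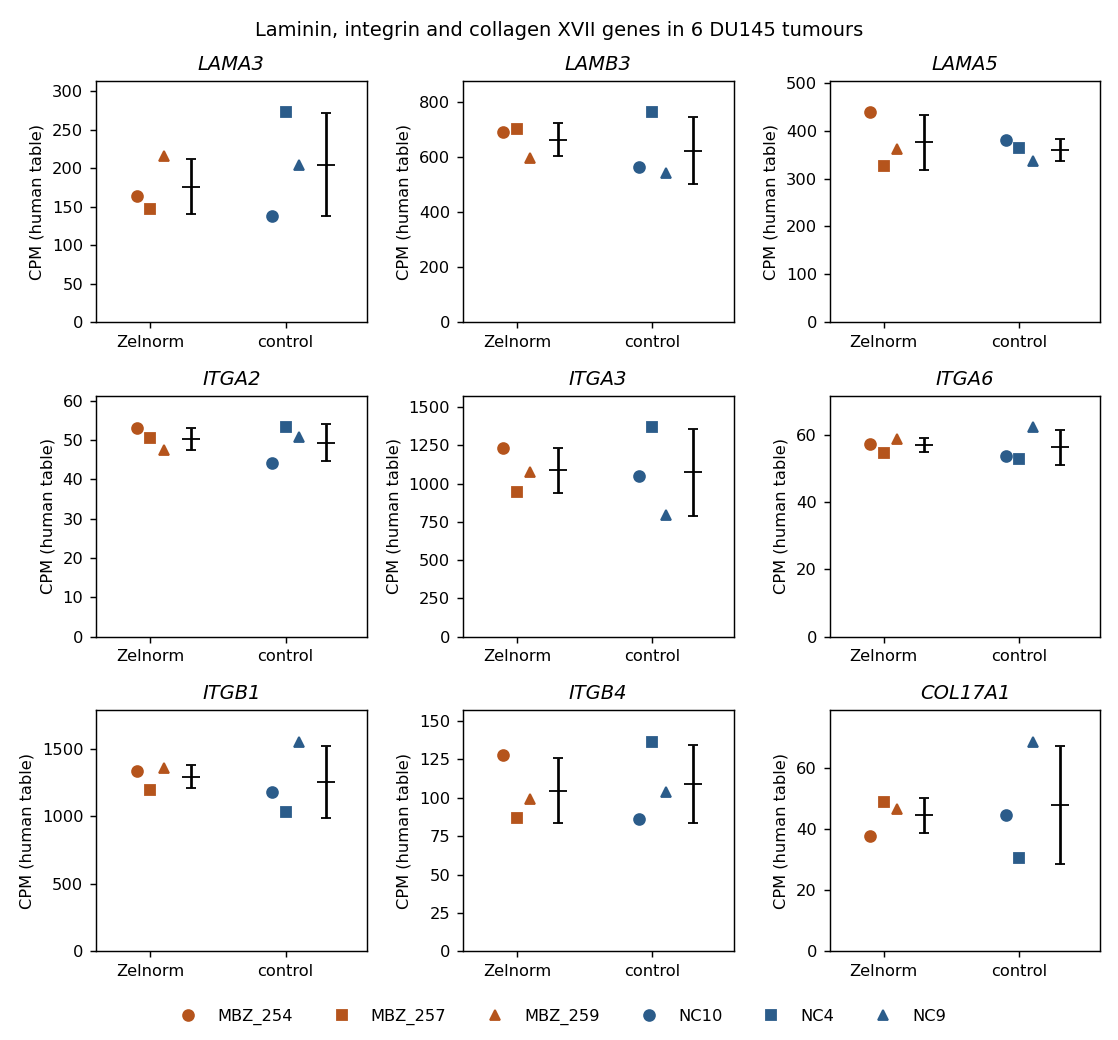
Level of each of the 9 genes in CPM of the human table (vertical axes, starting at 0) in the 3 Zelnorm and the 3 control tumours, 1 symbol per tumour, with the mean and SD beside the symbols. Zelnorm and control tumours overlap for each gene, and the control tumours NC4 and NC9 lie far apart for ITGA3, ITGB1 and COL17A1.

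Of the laminin chains, LAMA3 (ENSG00000053747) was at 164 CPM in MBZ_254, 148 in MBZ_257 and 216 in MBZ_259, against 138 in NC10, 273 in NC4 and 204 in NC9. The control NC4 was the highest of the 6 tumours and the control NC10 the lowest, so the Zelnorm range lay inside the control range. The mean was 176 ± 35.8 CPM in Zelnorm and 205 ± 67.3 CPM in control tumours (SD, n = 3 each), a log2 fold change of -0.22 (SE 0.23; edgeR adjusted p = 1.00). The 95% interval of the fold ran from 0.600 to 1.23. Without NC4 the log2 fold change was 0.04.

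LAMB3 (ENSG00000196878), which encodes the beta chain that joins LAMA3 in the trimer, was at 692, 704 and 595 CPM in MBZ_254, MBZ_257 and MBZ_259. In the controls it was at 565 in NC10, 762 in NC4 and 542 in NC9. Again NC4 was the highest tumour, but the lowest was NC9. The mean was 664 ± 59.6 CPM in Zelnorm and 623 ± 121 CPM in control tumours, a log2 fold change of 0.09 (SE 0.15; fold interval 0.839 to 1.35). LAMA5 (ENSG00000130702) was at 438, 327 and 362 CPM in MBZ_254, MBZ_257 and MBZ_259, against 380, 363 and 336 CPM in NC10, NC4 and NC9. Both its highest and its lowest tumour were Zelnorm tumours, and its log2 fold change was 0.06 (SE 0.14; fold interval 0.846 to 1.29) and -0.06 without MBZ_254.

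Of the hemidesmosome receptor, ITGA6 (ENSG00000091409) was at 57.4 CPM in MBZ_254, 54.7 in MBZ_257 and 58.7 in MBZ_259, against 53.8 in NC10, 52.8 in NC4 and 62.3 in NC9. It was the steadiest of the 9 genes, its highest tumour standing at 1.18 times its lowest. Its log2 fold change of 0.01 (SE 0.11) had a fold interval from 0.851 to 1.20. ITGB4 (ENSG00000132470), its partner, was at 128 CPM in MBZ_254, 86.6 in MBZ_257 and 99.2 in MBZ_259, against 86.3 in NC10, 137 in NC4 and 104 in NC9. NC4 and MBZ_254 were high, and MBZ_257 and NC10 were low, so each group held a high and a low tumour. The mean was 105 ± 21.1 CPM in Zelnorm and 109 ± 25.5 CPM in control tumours (log2 fold change -0.06, SE 0.19; fold interval 0.715 to 1.29). Without NC4 the log2 fold change was 0.14, and without MBZ_257 it was 0.06.

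COL17A1 (ENSG00000065618) varied most. It was at 37.8 CPM in MBZ_254, 49.0 in MBZ_257 and 46.5 in MBZ_259, against 44.6 in NC10, 30.5 in NC4 and 68.5 in NC9. Both extremes were controls, and NC4 stood at 0.444 times NC9. The mean was 44.4 ± 5.84 CPM in Zelnorm and 47.9 ± 19.2 CPM in control tumours (log2 fold change -0.11, SE 0.25; fold interval 0.631 to 1.36), and the sign turned without NC9 (0.25).

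Among the chains of the other receptors, ITGB1 (ENSG00000150093), the common beta chain, was at 1337 CPM in MBZ_254, 1196 in MBZ_257 and 1356 in MBZ_259, against 1182 in NC10, 1031 in NC4 and 1554 in NC9. Here too NC4 was the lowest and NC9 the highest tumour. The log2 fold change was 0.05 (SE 0.16; fold interval 0.806 to 1.32). ITGA3 (ENSG00000005884), which binds laminin together with ITGB1, was at 1236, 946 and 1079 CPM in MBZ_254, MBZ_257 and MBZ_259, against 1053, 1370 and 799 CPM in NC10, NC4 and NC9. For this alpha chain the controls stood the other way round, NC4 the highest tumour and NC9 the lowest. Its log2 fold change was 0.02 (SE 0.19; fold interval 0.751 to 1.36). ITGA2 (ENSG00000164171), the alpha chain of a collagen receptor, was at 53.0, 50.6 and 47.4 CPM in MBZ_254, MBZ_257 and MBZ_259, against 44.1, 53.3 and 50.6 CPM in NC10, NC4 and NC9, a log2 fold change of 0.03 (SE 0.12; fold interval 0.852 to 1.22). The sign turned for ITGB1 without NC4 (-0.08), for ITGA3 without NC9 (-0.15) or MBZ_254 (-0.08), for ITGA2 without NC10 (-0.04) or MBZ_254 (-0.01), and for ITGA6 without NC10 (-0.02), NC4 (-0.03) or MBZ_259 (-0.01).

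**Figure D2:**
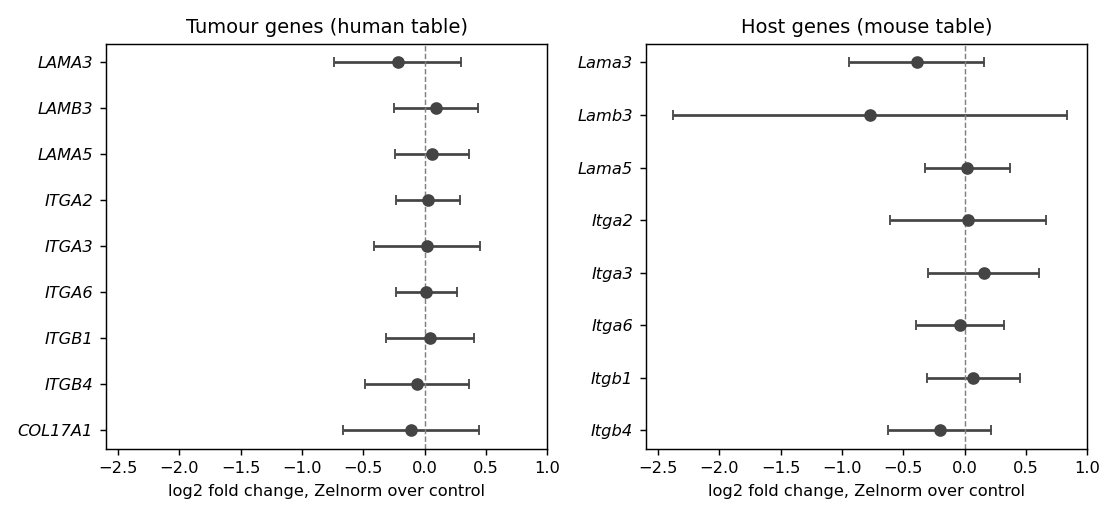
Log2 fold change of Zelnorm over control with its 95% interval (horizontal axes) for the 9 tumour genes of the human table and the 8 host genes of the same symbols that were tested in the mouse table. Each interval spans 0, and the widest belongs to host Lamb3, which had 3 to 33 counts per library.

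For each of the 9 genes the SD within either group was larger than the difference between the group means. The variation among controls did not move the 9 genes one way. The coefficient of variation over the 6 tumours was 27.9% for COL17A1, 26.7% for LAMA3, 19.8% for ITGB4 and 18.8% for ITGA3. It was 14.1% for ITGB1, 13.7% for LAMB3, 10.8% for LAMA5, 7.04% for ITGA2 and 6.28% for ITGA6. Over the 15966 tested human genes with a mean of at least 1 CPM the median was 13.0%, and 89.9% of them varied less than COL17A1 and 8.72% less than ITGA6. For 8 of the 9 genes the ratio of highest to lowest tumour was larger among controls than among Zelnorm tumours, and the same held for 52.9% of those 15966 genes. NC4 was the highest of the 6 tumours for 5 genes (LAMA3, LAMB3, ITGA2, ITGA3 and ITGB4) and the lowest for ITGA6, ITGB1 and COL17A1. NC9 was the highest for those last 3 genes and the lowest for LAMB3 and ITGA3.

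**Figure D3:**
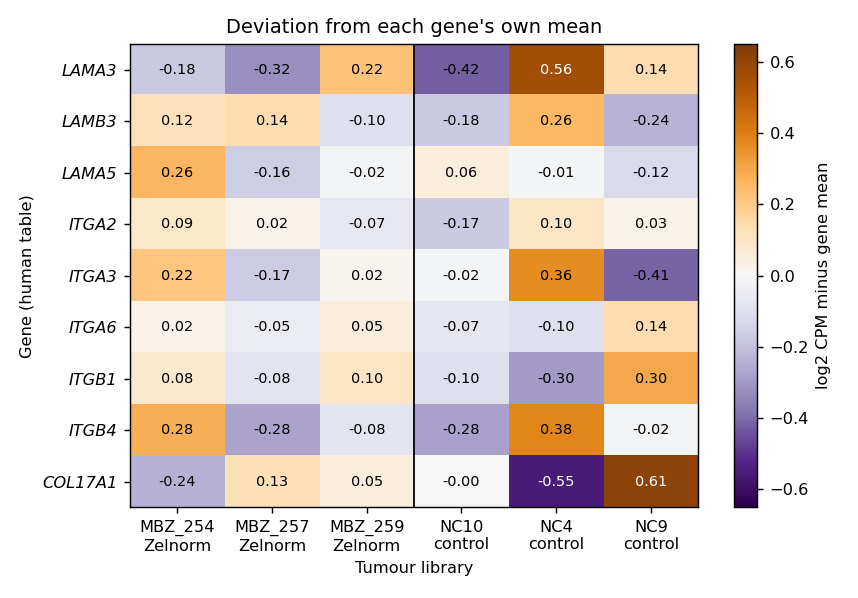
Deviation of each gene (down) from its own mean over the 6 tumours, in log2 CPM with a prior count of 2, in each tumour (across), Zelnorm tumours left of the line. NC4 reads 0.56 for LAMA3, 0.36 for ITGA3 and -0.55 for COL17A1, where NC9 reads 0.14, -0.41 and 0.61.

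Pairs of genes kept or lost their order across tumours in different ways. ITGA6 and ITGB1 put the 6 tumours in the same order, from NC4 at the low end through NC10, MBZ_257, MBZ_254 and MBZ_259 to NC9, although ITGA6 moved far less. COL17A1 and ITGA3 ran nearly opposite, with NC4 and MBZ_254 at one end of both and NC9 at the other. These pairs were chosen after all 36 had been seen and share the libraries and their scaling, so the orders are a description.

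Ratios of counts within a library, which need no scaling between libraries, overlapped between the groups for each of the 6 pairs. The ratio of LAMA3 to LAMB3 counts was 0.237, 0.210 and 0.363 in MBZ_254, MBZ_257 and MBZ_259, against 0.244, 0.358 and 0.376 in NC10, NC4 and NC9. The mean log2 ratio was -1.93 ± 0.42 in Zelnorm and -1.64 ± 0.34 in control tumours (SD, n = 3 each; exact two-sided permutation p = 0.3). That was the smallest p of the 6 pairs, with an adjusted p of 1 over the 6; the smallest p that 3 against 3 tumours can give is 0.1. The ratio of LAMA3 to LAMA5 differed by -0.24 on the log2 scale (exact permutation p = 0.6), or by -0.011 without NC4 and -0.53 without NC10, and that of ITGA6 to ITGB4 by 0.07 (exact permutation p = 0.8). The ratio of ITGB4 to ITGB1 counts, the hemidesmosome beta chain over the common one, was 0.0956, 0.0724 and 0.0732 in MBZ_254, MBZ_257 and MBZ_259, against 0.0730, 0.132 and 0.0668 in NC10, NC4 and NC9 (exact permutation p = 0.9). NC4 stood highest, followed by MBZ_254. The ratio of ITGA3 to ITGB1 counts was 0.925, 0.791 and 0.796 in the Zelnorm tumours, in the same order, against 0.891, 1.33 and 0.514 in the controls (exact permutation p = 1). NC4 was the only tumour with more ITGA3 than ITGB1 counts, and NC9 the one with the fewest ITGA3 per ITGB1 count. For COL17A1 over ITGB4 the log2 ratio was -1.22 ± 0.48 in Zelnorm and -1.24 ± 0.82 in control tumours (exact permutation p = 1). A ratio of counts depends on transcript lengths, so its level is not a ratio of molecules.

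**Figure D4:**
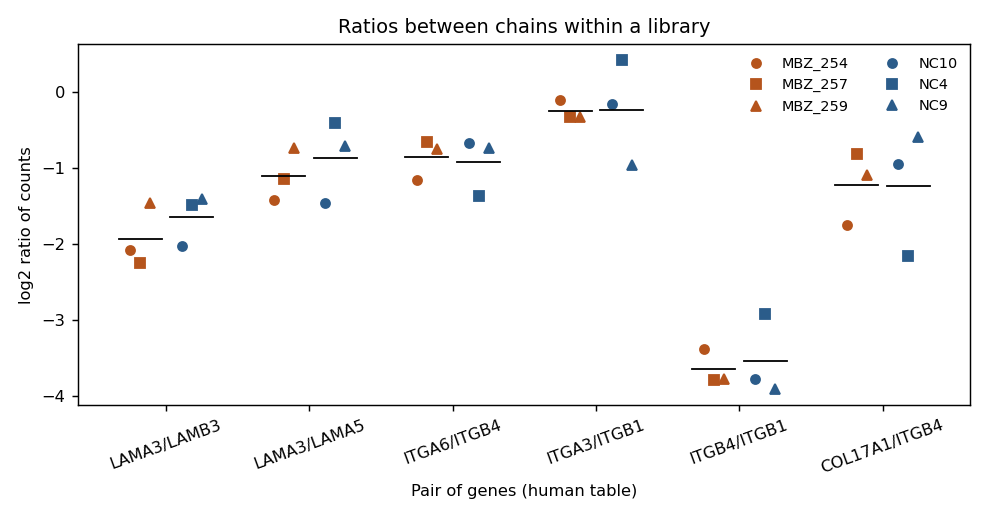
Log2 ratio of counts of 2 genes within a library (vertical axis) for 6 pairs, Zelnorm tumours left of control tumours in each pair, with bars at the group means. Groups overlap in each pair, and for ITGA3/ITGB1 the controls span -0.96 to 0.41 while the Zelnorm tumours lie between -0.34 and -0.11.

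The mouse table showed how many counts of the same symbols were assigned to mouse genes. LAMB3, COL17A1 and LAMA3 were read almost wholly in the human table, which held 99.9% ± 0.04 of LAMB3 counts in Zelnorm and 99.9% ± 0.03 in control tumours, 99.7% ± 0.24 and 99.4% ± 0.14 of COL17A1 counts, and 98.9% ± 0.30 and 98.6% ± 0.55 of LAMA3 counts. LAMA5 stood at 96.3% ± 0.97 and 95.9% ± 0.94, and ITGB4 at 96.4% ± 0.52 and 95.7% ± 0.16. ITGA3 stood at 92.1% ± 0.27 in Zelnorm and 92.1% ± 0.26 in control tumours, and ITGA2 at 91.4% ± 4.15 and 91.3% ± 1.30. ITGA6 and ITGB1, which vessels and connective tissue also express, had the largest shares in the mouse table. The human share of ITGA6 was 61.7% in MBZ_254 (95% Wilson interval 59.7 to 63.7), 77.5% in MBZ_257 (interval 75.8 to 79.2) and 73.7% in MBZ_259 (interval 72.0 to 75.2). In the controls it was 69.6% in NC10 (interval 67.6 to 71.6), 62.3% in NC4 (interval 60.3 to 64.3) and 74.1% in NC9 (interval 72.6 to 75.6). The human share of ITGB1 was 84.1% ± 4.61 in Zelnorm and 83.3% ± 3.85 in control tumours.

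The shares of LAMB3 and ITGB4, 2 of the 8 genes tested in both tables, did not overlap between the groups, as was so for 2.05% of the 11145 symbols tested in both. Neither passed the test (exact two-sided permutation p = 0.1 each, the smallest possible; adjusted p = 0.45 over the 9 genes). With each table scaled to its own total, neither gene's groups were separate. The differences in share were 0.06 percentage points for LAMB3 and 0.63 for ITGB4 from counts, and 0.22 and 1.33 with that scaling. Without MBZ_257 the ITGB4 difference was 0.33, and LAMB3 rested on 11, 19 and 3 mouse counts in MBZ_254, MBZ_257 and MBZ_259, against 13, 22 and 33 in NC10, NC4 and NC9. The human share of all counts was 76.6%, 84.9% and 80.3% in MBZ_254, MBZ_257 and MBZ_259, against 80.7%, 77.7% and 81.0% in NC10, NC4 and NC9. These intervals cover counting error only.

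The mouse counts of Itga3 stood at a nearly fixed share of the human counts of ITGA3, while the share of mouse counts over all genes varied. Per 100 human ITGA3 counts the mouse table held 8.91, 8.52 and 8.28 Itga3 counts in MBZ_254, MBZ_257 and MBZ_259, against 8.27, 8.67 and 8.88 in NC10, NC4 and NC9, a coefficient of variation of 3.29%. For all genes together the same figure was 30.5, 17.8 and 24.5 in the Zelnorm tumours and 23.8, 28.7 and 23.5 in the controls, a coefficient of variation of 18.0%. For ITGB1 it ran from 13.2 in MBZ_257 to 26.3 in NC4, and for ITGA6 from 29.0 in MBZ_257 to 62.1 in MBZ_254, both with the lowest value in the tumour with the lowest mouse share of all counts. On the mouse scale Itga3 was highest in that tumour, at 483 CPM in MBZ_257, against 344 in MBZ_254, 369 in MBZ_259 and 307 to 398 in the controls. Which cells the Itga3 reads came from was not tested, and the sources used here do not say how reads were divided between the tables.

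**Figure D5:**
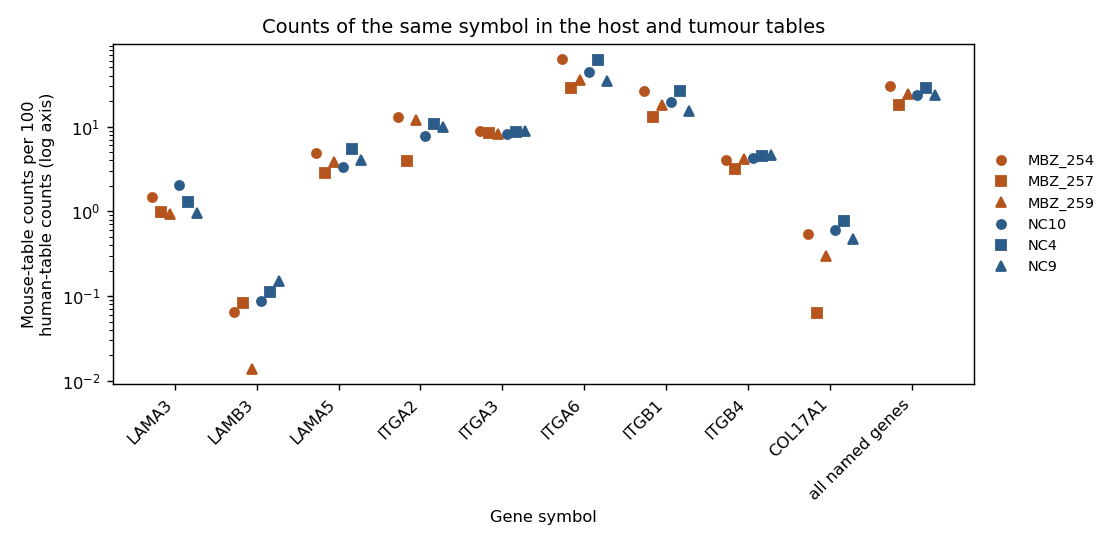
Mouse-table counts per 100 human-table counts (vertical log axis) of each symbol and of all named genes, in 3 Zelnorm (orange) and 3 control (blue) tumours. The 6 ITGA3 values lie together between 8.27 and 8.91, while those of ITGA6 span 29.0 to 62.1 and those of all genes 17.8 to 30.5.

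No host gene of these symbols was called either. Of 14459 tested mouse genes edgeR called 0, or 0% (253 had an unadjusted p under 0.05; DESeq2 called 6 and limma-voom 0), and none of the 8 tested host genes had separate groups, where 5.52% of mouse genes did. Col17a1, with 1 to 5 counts in Zelnorm and 6 to 13 counts in control libraries, did not pass the filter. Lama3 (ENSMUSG00000024421) was at 7.62, 8.70 and 8.23 CPM of the mouse table in MBZ_254, MBZ_257 and MBZ_259, against 12.0, 11.8 and 8.47 CPM in NC10, NC4 and NC9. It was the host gene with the smallest p, and 1 control lay within the Zelnorm range (log2 fold change -0.39, SE 0.24; edgeR adjusted p = 1.00). Itgb1, at 1014 ± 76.8 CPM in Zelnorm and 966 ± 54.8 CPM in control tumours, gave a log2 fold change of 0.07 (SE 0.17), and Itga6, at 97.6 ± 12.5 and 100.1 ± 6.54 CPM, of -0.04 (SE 0.16). Whether tumour and host genes respond differently was not tested.

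Levels of host genes were set side by side per kilobase of annotated exon in GENCODE's mouse annotation of GRCm38. Itgb1 (chromosome 8, 128685654 to 128733200) came first with 248.5 ± 18.8 CPM per kilobase in Zelnorm and 237 ± 13.4 in control tumours, followed by Itga3 (chromosome 11, 95044474 to 95076801) with 69.8 ± 13.0 and 62.7 ± 8.17. The place of Itga3 rests on mouse counts that kept a nearly fixed share of the human ITGA3 counts, and whether human reads were assigned to the mouse gene was not tested. Itga6 (chromosome 2, 71745616 to 71858416) came next with 10.8 ± 1.39 and 11.1 ± 0.72, then Lama5 with 5.28 ± 0.56 and 5.21 ± 0.51. Itga2, at 2.64 ± 0.84 and 2.60 ± 0.50, and Itgb4, at 2.35 ± 0.08 and 2.71 ± 0.42, did not differ beyond their spread. Lama3, at 0.762 ± 0.05 and 1.00 ± 0.19, and Lamb3, at 0.265 ± 0.24 and 0.430 ± 0.11 CPM per kilobase, were lowest. No lengths of human genes were used, so levels of different human genes are not ranked.

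The partners of these genes were read from 7 lists, and 0 of their 93 tested genes was called in either direction. Over all 18820 tested human genes, 9239 fitted changes were above 0 and 9581 below. Genes of a list were read in the same tumours, so their signs are not independent, and no list was tested as a set. The hemidesmosome partners had 6 of 7 tested, 3 above 0 and 3 below (median log2 fold change -0.01). DST, a plakin that links COL17A1 to keratins, was at 303 ± 50.9 CPM in Zelnorm and 328 ± 90.6 CPM in control tumours, and ERBIN, which binds the tail of ITGB4, at 283 ± 17.2 and 299 ± 76.1 CPM. KRT14, a basal keratin, was near the limit of detection at 0.961 ± 0.47 and 0.379 ± 0.26 CPM (log2 fold change 1.29, SE 0.60), and KRT5, its partner, did not pass the filter. Of the other laminin chains all 8 were tested, 2 above 0 and 6 below (median -0.10); LAMB1 was at 94.9 ± 1.59 and 103 ± 12.0 CPM and LAMA1 at 54.2 ± 23.2 and 65.8 ± 21.9 CPM. Of other basement membrane proteins 14 of 15 were tested, 3 above 0 and 11 below (median -0.07). The log2 fold change was -0.15 for FRAS1 (SE 0.14), -0.19 for COL7A1, the anchoring fibril collagen (SE 0.20), and -0.17 for COL4A3, a chain of network collagen (SE 0.23). Without MBZ_259 it was -0.021 for FRAS1 and -0.026 for COL7A1.

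Other integrin chains had 3 above 0 and 11 below among 14 tested of 16 (median log2 fold change -0.07). The log2 fold change was 0.17 for ITGAE (SE 0.15), -0.39 for ITGB8 (SE 0.35) and -0.20 for ITGA7, another laminin-binding alpha chain (SE 0.20). The adaptors that connect integrins to actin and signalling were all tested, 10 above 0 and 12 below (median -0.01). CRK was at 129 ± 12.9 CPM in Zelnorm and 119 ± 11.8 CPM in control tumours, PTK2B, a kinase related to focal adhesion kinase, at 45.6 ± 6.43 and 49.0 ± 3.21 CPM, and BCAR1, the scaffold p130Cas, at 102 ± 16.1 and 93.9 ± 14.3 CPM.

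Among 18 of 19 tested proteases and inhibitors that act on laminins and matrix, 7 were above 0 and 11 below (median log2 fold change -0.06). TLL1, a protease of the family that trims laminin chains, gave a log2 fold change of -0.62 (SE 0.43) at group means under 1 CPM (-0.23 without NC10), and MMP2, a gelatinase, of -0.42 (SE 0.43).

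Of the basal epithelial genes 11 of 12 were tested, 3 above 0 and 8 below (median log2 fold change -0.03), and 1 had an unadjusted p under 0.05. That was KRT6A, a keratin of activated epithelium, at 70.5, 50.3 and 86.5 CPM in MBZ_254, MBZ_257 and MBZ_259, against 40.0, 41.0 and 59.2 CPM in NC10, NC4 and NC9. MBZ_257 lay below the control NC9, and the log2 fold change was 0.56 (SE 0.21; edgeR adjusted p = 1.00). KRT17, another keratin of this kind, was at 13.2 ± 10.8 CPM in Zelnorm and 9.02 ± 2.41 CPM in control tumours, and its log2 fold change of 0.55 turned to -0.34 without MBZ_254. NGFR was at 0.318 ± 0.22 and 0.538 ± 0.12 CPM. TP63, the master regulator of basal epithelium, was at 0.277 CPM in Zelnorm and 0.347 CPM in control tumours, so the laminin and integrin genes were read in tumours with almost no transcripts of it; TP63 was named after its value was seen.

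The genes whose levels followed LAMB3 most closely over the 6 tumours, out of 15957 human genes with a mean of at least 1 CPM, were RRNAD1 (Pearson r = 0.99, Spearman rho = 0.94), FBXL20 (r = 0.99, rho = 0.94), CTNNA1, which encodes the cadherin partner alpha-catenin (r = 0.99, rho = 1), OGFOD2 (r = 0.99, rho = 1) and HEIH (r = 0.99, rho = 1). These correlations over 6 libraries are the top of a long ranking and describe these libraries alone. Their own log2 fold changes lay between 0.02 and 0.08.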

How the data were processed

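RNA was sequenced from 6 tumours. The authors deposited estimated counts, in a human and a mouse table. The submitters' processing notes list the tools StringTie, HISAT2, edgeR and DESeq2 and the builds GRCm38 and GRCh38, without version or role. The sources used here do not say how reads were divided between species. Of values above 0, 37.9% (human) and 26.5% (mouse) were not whole, so estimated counts were rounded. The tests had been planned for raw or estimated counts. Rows without a gene name held 0.407% to 0.518% of human and 0.317% to 0.468% of mouse counts and were left out. Column names share a group prefix with the titles, but their numbers stand in no label, so libraries are named by column and have no replicate number.

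Across all genes of a table, Zelnorm was set against control with edgeR 4.0.16 (R 4.3.3): filterByExpr, TMM, glmQLFit and glmQLFTest, Benjamini-Hochberg adjustment, calls under 0.05. CPM are counts scaled to the tested genes' library total times its TMM factor; marker sums use the total of named genes without a factor. SE came from the F statistic and intervals from the same test's degrees of freedom. The fit was tested on simulated data with the same dispersion for every gene, so that test does not cover the differing spreads of these genes. Ratios used a pseudocount of 0.5. Shares over all genes used symbols that match by name and were tested once in each table. Alternatives were RLE and upper-quartile scaling, no count filter, DESeq2 1.42.0, limma-voom (limma 3.58.1), unrounded counts, a pseudocount of 5, shares scaled by table totals, and leaving out each library. Strand is not stated, so LAMA5, ITGA6 and ITGB1 cannot be told apart from their antisense or divergent partners, which had at most 47 counts.

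Genes and lists were chosen with earlier results of these data known. Named were the 9 genes, up to 3 genes with the smallest p from each of 7 lists, and the 5 most like LAMB3 (Pearson r of log2 CPM, prior count 2). Of the genes so selected, 2 are not reported here. No sequences are shown.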

Additional observations from a re-analysis of the deposited data

How the results depend on the processing

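No alternative called any of the 9 genes: each kept an adjusted p of 0.998 or more over 12 alternatives. No paired analysis was possible because the columns carry no replicate numbers. The count of called human genes was 61 without the count filter and 1 with DESeq2, against 0, and 1 gene of the protease list was called without the filter, against 0. Other scalings and unrounded counts turned no sign among the 9 genes, but leaving out 1 library did. Log2 fold changes then ran from -0.43 to 0.042 (LAMA3), -0.063 to 0.15 (LAMA5), -0.045 to 0.087 (ITGA2), -0.15 to 0.23 (ITGA3), -0.028 to 0.10 (ITGA6), -0.077 to 0.23 (ITGB1), -0.23 to 0.14 (ITGB4) and -0.35 to 0.25 (COL17A1). LAMB3 kept its sign (0.0052 to 0.26). Named partners whose sign turned were DST (-0.29 to 0.12), ERBIN (-0.25 to 0.12), LAMA1 (-0.52 to 0.035), COL4A3 (-0.37 to 0.12), ITGB8 (-0.65 to 0.13), BCAR1 (-0.023 to 0.24), MMP2 (-0.96 to 0.038) and KRT17 (-0.34 to 0.92). Partners that kept their sign but moved widely were FRAS1 (-0.26 to -0.021), COL7A1 (-0.36 to -0.026), LAMB1 (-0.21 to -0.045), CRK (0.037 to 0.19), PTK2B (-0.22 to -0.038), TLL1 (-0.95 to -0.23) and NGFR (-1.46 to -0.41), and among host genes Lamb3 (-1.70 to -0.25), Itga3 (0.0079 to 0.24) and Itgb1 (0.0032 to 0.14). KRT6A (0.37 to 0.78), KRT14 (0.85 to 1.64), ITGAE (0.075 to 0.27) and ITGA7 (-0.29 to -0.14) also kept their sign. So did host Lama3 (-0.55 to -0.32) and Itgb4 (-0.34 to -0.14). Without the count filter the edgeR adjusted p of KRT6A was 0.072, so it was not called there either. Host genes whose sign turned were Lama5 (-0.083 to 0.096), Itga2 (-0.15 to 0.27) and Itga6 (-0.15 to 0.042). Differences in log2 ratio ran from -0.52 to -0.13 (LAMA3/LAMB3), -0.53 to -0.011 (LAMA3/LAMA5), -0.15 to 0.22 (ITGA6/ITGB4), -0.38 to 0.30 (ITGA3/ITGB1), -0.30 to 0.19 (ITGB4/ITGB1) and -0.45 to 0.33 (COL17A1/ITGB4). Differences in human share, in percentage points, ran from -0.0057 to 0.53 (LAMA3), -0.16 to 0.85 (LAMA5), -2.30 to 1.48 (ITGA2), -0.093 to 0.18 (ITGA3), -1.02 to 6.91 (ITGA6) and -1.26 to 3.32 (ITGB1); with each table over its own total they were -1.27 (ITGA3), 0.22 (LAMB3) and 1.33 (ITGB4), and 0 of 8 shares were separate, against 2 from counts. The cause of these turns was not tested. The 95% intervals of the fold differed between genes, from 0.851 to 1.20 for ITGA6 at the narrow end to 0.631 to 1.36 for COL17A1.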
